A study of Mus musculus with 20 samples.

Results

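The genes described here are 10 chains of receptors for cytokines and interferons in mouse bone marrow-derived macrophages: Ifnar1, Ifnar2, Ifngr1, Ifngr2, Il4ra, Il10ra, Il6ra, Tnfrsf1a, Tnfrsf1b and Csf2rb. They were chosen by symbol from the 22165 genes of the count table. No rule used their values, but earlier results of these data were known. All 10 were among the 10663 genes that passed the filter on low counts. The study asks, per its title, about dimethyl itaconate and secondary NF-κB signaling in macrophage activation. Transcripts were counted at their 3' ends in 20 libraries, 2 in each of 10 groups.

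In 5 groups, macrophages received 250 µM dimethyl itaconate (DI, a membrane-permeable ester of the mitochondrial metabolite itaconate; the sample labels spell it demethyl itaconate) for 12 h and then a stimulus of lipopolysaccharide (LPS) with interferon gamma (IFNg). They were taken at 0, 1, 2, 4 and 6 h of the stimulus. In the other 5 groups (Ctrl) the cells had the same stimulus and times without DI. All cells were wild type (WT), from C57BL/6 mice, and had been grown for 7 days in RPMI with m-CSF. The labels do not give the age of the mice, and nothing in them says whether the 2 libraries of a group came from separate cultures or animals, so p-values measure the spread between these libraries, which may be technical.

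Type I interferons bind IFNAR1 with IFNAR2, and IFNg binds IFNGR1 with IFNGR2; both pairs signal through Janus kinases (JAKs) to transcription factors of the STAT family. The ligand-binding chains for interleukins 4, 10 and 6 also use JAKs, each with a partner chain (the common gamma chain or IL13RA1, IL10RB, and gp130 encoded by Il6st), and activate mainly STAT6 or STAT3. CSF2RB is the shared beta chain for GM-CSF, IL-3 and IL-5 and works through JAK2 and STAT5, while the TNF receptors TNFR1 (Tnfrsf1a) and TNFR2 (Tnfrsf1b) use TRAF adaptors and lead to NF-κB. In macrophages these receptors decide which later signals an activated cell can answer, and LPS itself acts through another receptor, TLR4.

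Library totals were 3982073 to 6725447 counts in DI and 3655977 to 8938983 in Ctrl. The DI libraries held more genes without a count, 11143 to 12356 against 9301 to 10859 in Ctrl. Genes expected at 4 to 12 reads lacked any count in 15.4 to 49.2% of cases under DI, against 3.33 to 13.0% under Ctrl. This corresponds to an estimated 3.58 to 10.2 reads per original molecule in DI and 1.82 to 3.31 in Ctrl. The labels name no molecular identifiers, so reads are not independent molecules and intervals cover the spread between libraries alone. The part of this difference in the results below was tested only by dividing the counts by these estimates. Summed markers of macrophages (9 of 9 with counts) reached 2868 to 4502 CPM of all counts in DI and 3493 to 5175 in Ctrl. The 8 neutrophil markers summed to 314 to 586 CPM in DI and 389 to 703 in Ctrl, and stromal markers (6 of 6) to 5.30 to 41.4 CPM in DI and 39.9 to 71.0 in Ctrl. T cell markers (5 of 7 with counts, Cd3e at 0), B cell markers (5 of 5), dendritic cell markers (4 of 5, Cd209a at 0) and mast cell markers (4 of 5, Fcer1a at 0) summed to at most 23.6 CPM in DI and 18.2 in Ctrl. The part of these differences in the receptor results was not tested. In bulk RNA, fewer cells that express a gene and less RNA per cell cannot be told apart. Levels below are CPM on TMM-scaled library sizes, which compare groups for 1 gene and not genes with each other.

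The receptor genes lie on 8 chromosomes of GRCm38, and Ifnar2 (chr16:91372783-91405589), Ifnar1 (chr16:91485238-91507441) and Ifngr2 (chr16:91547072-91565623) are neighbours on the + strand of chromosome 16. With Il10rb, which encodes the second chain of the IL-10 receptor (chr16:91406164-91425834), they fill 192841 bp, and 574 bp part Ifnar2 from Il10rb. RefSeq promoters of GRCm38.p6 were at hand for 8 of the 10 genes, all but Il10ra and Csf2rb. Shown are the 250 bases before the start of 3 genes whose courses are described most closely below: Il4ra, whose early and late differences under DI had opposite signs, Tnfrsf1b, which was higher under DI without a stimulus, and Ifngr2, whose late rise is described below. Sequences run 5′ to 3′ on the gene's strand, and capitals mark matches to the motifs named after them.
Il4ra (chr7:125552021-125552270, + strand): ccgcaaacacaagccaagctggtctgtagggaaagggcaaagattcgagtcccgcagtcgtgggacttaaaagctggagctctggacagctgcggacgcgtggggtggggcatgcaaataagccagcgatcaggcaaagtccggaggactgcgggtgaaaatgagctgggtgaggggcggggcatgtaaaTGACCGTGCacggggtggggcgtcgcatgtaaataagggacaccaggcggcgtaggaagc
Tnfrsf1b (chr4:145246871-145247120, - strand): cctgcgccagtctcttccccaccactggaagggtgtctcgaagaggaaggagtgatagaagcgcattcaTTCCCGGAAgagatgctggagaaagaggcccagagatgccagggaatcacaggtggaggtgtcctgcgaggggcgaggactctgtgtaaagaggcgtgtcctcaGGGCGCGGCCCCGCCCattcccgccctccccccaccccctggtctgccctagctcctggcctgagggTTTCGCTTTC
Ifngr2 (chr16:91546809-91547058, + strand): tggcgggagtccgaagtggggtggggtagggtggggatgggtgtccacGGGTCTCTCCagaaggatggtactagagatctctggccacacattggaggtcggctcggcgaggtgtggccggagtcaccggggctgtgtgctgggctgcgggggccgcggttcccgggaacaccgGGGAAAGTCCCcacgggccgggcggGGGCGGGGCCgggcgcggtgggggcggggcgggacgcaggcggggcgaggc

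In these letters Il4ra holds TGACCGTGC, a match to the antioxidant response element core TGACNNNGC bound by NRF2 with small MAF proteins, 60 bases before the start. Tnfrsf1b holds TTCCCGGAA, a match to the STAT site TTCNNNGAA, 181 bases before the start, and TTTCGCTTTC 10 bases before it, which on the other strand matches the interferon-stimulated response element (ISRE) pattern searched. Ifngr2 holds GGGAAAGTCC 76 bases before the start, a match to the loose NF-κB pattern searched that overlaps a match on the other strand there; its other capitals, and the run of capitals 77 bases before the start of Tnfrsf1b, match the same pattern. Both strands of 300 bases (250 before and 50 after the start) were searched in all 32851 promoters of the table. TGACNNNGC was in 12.4% of them and in 1 of the 8 receptor promoters, and TTCNNNGAA in 8.3% and in 4 of 8 (Ifnar1, Ifnar2, Tnfrsf1a and Tnfrsf1b). The ISRE pattern was in 3.44% and in 1 of 8, and the NF-κB pattern in 50.8% and in 7 of 8. A match is a description of the letters and not a site of binding.

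**Figure D1:**
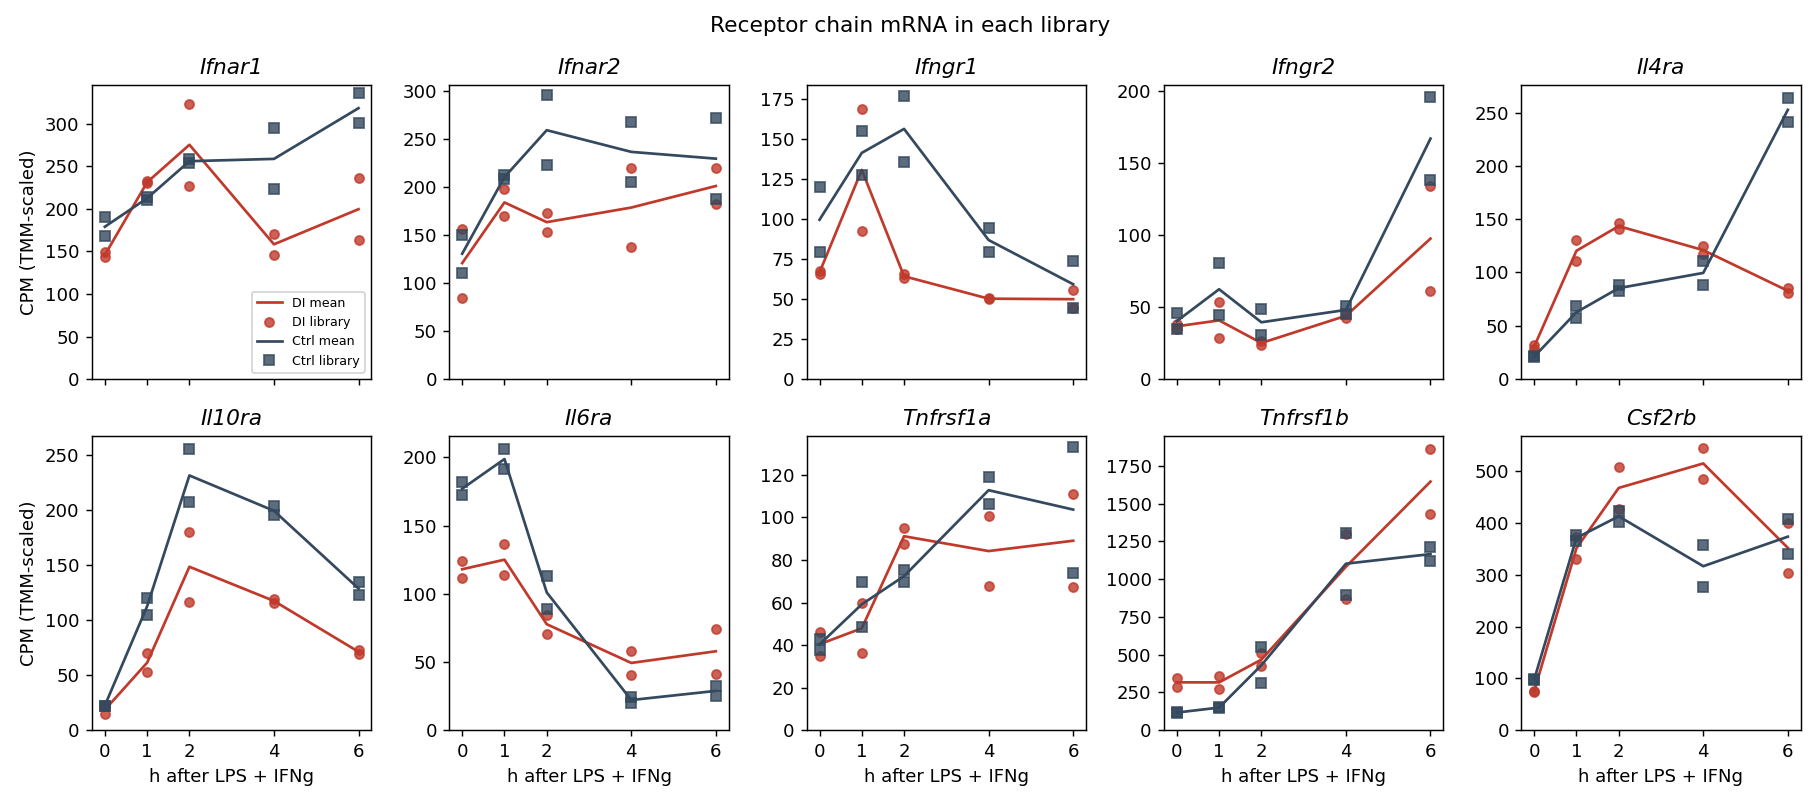
Level of each receptor gene in every library (y axis, TMM-scaled CPM, own scale per gene) against hours of LPS with IFNg (x axis). Red circles are DI and dark squares Ctrl libraries, 2 per group, and lines join group means; Il4ra under DI lies above Ctrl at 1 h and far below it at 6 h (82.8 against 252 CPM), and Il6ra under DI lies above Ctrl at 4 and 6 h.

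By 6 h the stimulus had changed most of these receptor messages in both conditions, and DI changed up to 3 of them at any 1 time. In DI cells 3, 5, 6 and 7 of the 10 genes were called against 0 h at 1, 2, 4 and 6 h, where 3.59%, 11%, 18.7% and 20.2% of all tested genes were called. In Ctrl cells the numbers were 3, 5, 7 and 8 of 10, beside 4.07%, 12.2%, 24.3% and 26.5% of all genes. A gene was called at an adjusted p under 0.05 in the edgeR quasi-likelihood test with Benjamini-Hochberg adjustment over all tested genes, and all fold changes below are on the log2 scale with their SE. The median change of the 10 at 6 h was 1.28 in DI and 1.65 in Ctrl, beside medians of all genes of -0.10 in DI and -0.17 in Ctrl.

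These changes over time depend on scaling. TMM factors ran between 1.4 and 0.7337 over the libraries, and scaling by library totals instead moved the median gene against 0 h by -0.23, -0.45, -0.61 and -0.55 in DI at 1, 2, 4 and 6 h and by -0.30, -0.57, -0.86 and -0.82 in Ctrl. The same scaling moved the median of DI against Ctrl by -0.06, 0.00, 0.05, 0.18 and 0.19 over the 5 times in order.

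**Figure D2:**
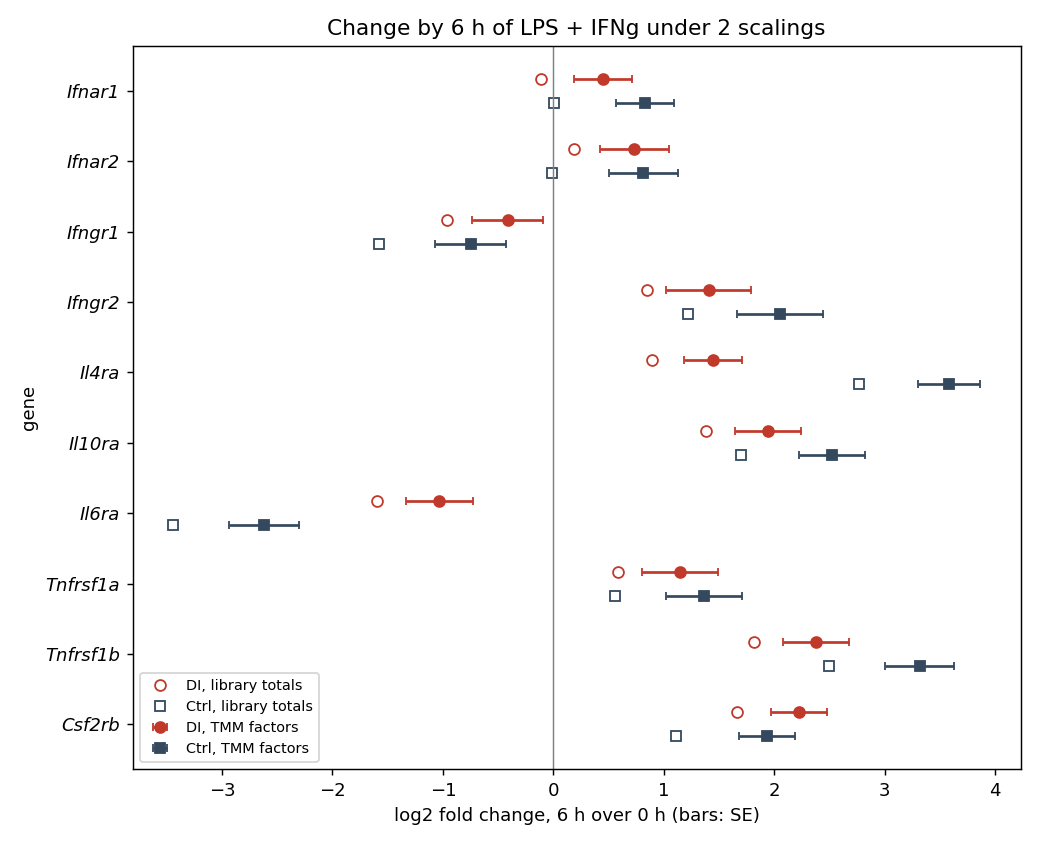
Log2 fold change of each receptor gene at 6 h against 0 h (x axis) in DI and in Ctrl, with SE as bars; filled symbols use TMM factors and open symbols library totals. With totals all changes move down: Ifnar1 and Ifnar2 in Ctrl lie at 0.01 and -0.015, Ifnar1 in DI turns to -0.11, and Ifngr1 lies at -0.97 in DI and -1.58 in Ctrl, while Il4ra, Il10ra, Il6ra, Tnfrsf1b and Csf2rb keep their direction in both.

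DI against Ctrl called 1 of the 10 receptors before the stimulus, beside 3.6% of all tested genes. After it, the numbers were 2, 1, 1 and 3 at 1, 2, 4 and 6 h, beside 4.89%, 6.24%, 9.43% and 14.2% of all genes. Over the mean of the 5 times it called 4 of 10, beside 29.7% of all genes. The median of the 10 for that mean was -0.21, beside -0.06 for all genes. The groups of 2 did not overlap between DI and Ctrl in 46.5% of all genes at 0 h and 53.5% at 6 h, so that separation of the libraries alone is common in these data.

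**Figure D3:**
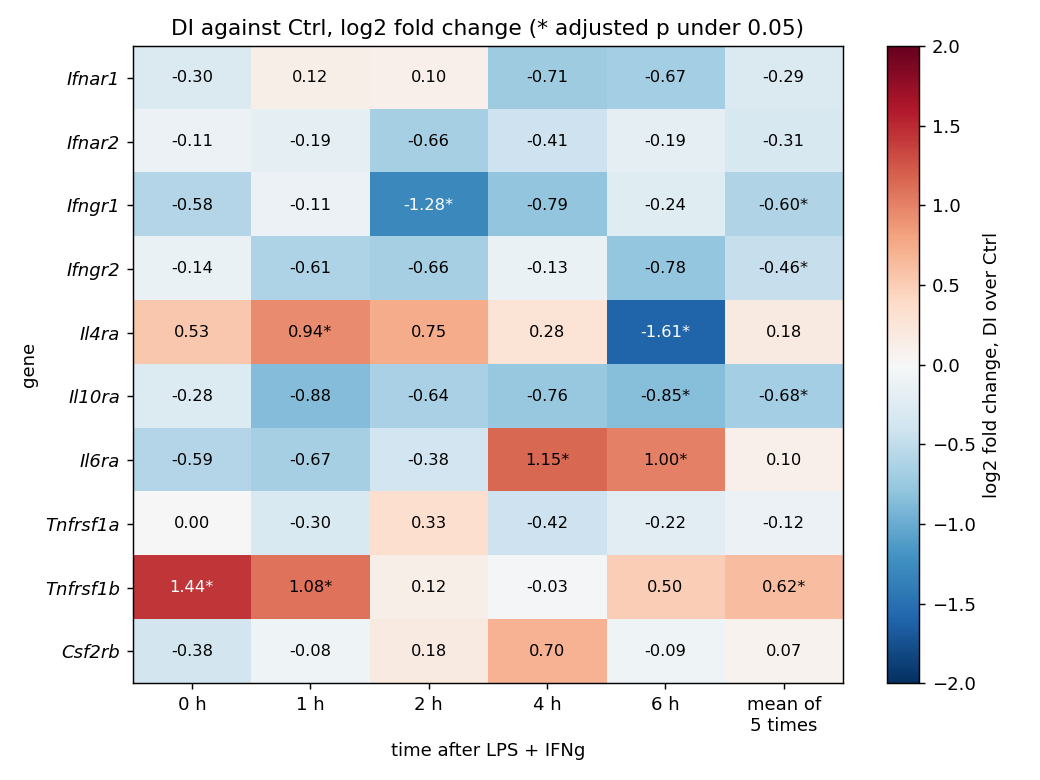
Log2 fold change of DI against Ctrl (colour, with the value in each cell) for each receptor gene (rows) at each time and for the mean of the 5 times (columns), with an asterisk where the adjusted p was under 0.05. Tnfrsf1b is called at 0 and 1 h, Il4ra at 1 h upward and at 6 h downward, Ifngr1 at 2 h, Il6ra at 4 and 6 h and Il10ra at 6 h.

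Among the interferon receptor chains, those for IFNg were called lower in DI cells over the mean of the 5 times. The clearest single time was Ifngr1 at 2 h. Whether the IFNg chains differed from those for type I interferon was not tested. Ifngr1 encodes the chain that binds IFNg. It measured 67.5 and 65.8 CPM in DI libraries at 0 h, against 79.3 and 120 in Ctrl. At 2 h it measured 63.1 and 65.5 CPM in DI libraries, against 136 and 177 in Ctrl. Both DI libraries lay below both Ctrl libraries at 0, 2 and 4 h, and the groups overlapped at 1 and 6 h. The difference was -1.28 ± 0.32 at 2 h (adjusted p = 0.01588) and -0.60 ± 0.14 over the mean of the times (adjusted p = 0.002205), with the mean lower in DI at 5 of 5 times. The call at 2 h was lost without Ctrl replicate 2 or either DI library of that time, and that over the mean held with any 1 of the 20 libraries left out. With only the compared groups the 2 h call was lost as well (-1.28, edgeR adjusted p = 0.05284). Over time, Ifngr1 was at 49.97 ± 7.80 CPM in DI at 6 h and 66.7 ± 1.197 at 0 h (SD, n = 2), a difference of -0.41 ± 0.32 (adjusted p = 0.4061), which was called at -0.97 with library totals. In Ctrl it was at 59.3 ± 20.9 CPM at 6 h and 99.6 ± 28.7 at 0 h, or -0.75 ± 0.32 (adjusted p = 0.09111), called at -1.58 with totals and at -1.08 with TMM factors of genes of at least 32 CPM.

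Ifngr2 encodes the second chain, which brings JAK2 to the complex and whose amount is known to limit IFNg signaling in some cells. It measured 61.2 and 134 CPM in DI libraries at 6 h, against 195 and 138 in Ctrl. At 0 h it measured 34.8 and 38.4 CPM in DI, against 45.8 and 34.7 in Ctrl. Values at 1, 2 and 4 h stayed between 23.7 and 53.3 CPM in DI and between 30.3 and 80.4 in Ctrl, so the 6 h libraries stood above the others within each condition. At 6 h Ifngr2 rose against 0 h by 1.41 ± 0.38 in DI (adjusted p = 0.0105) and by 2.05 ± 0.39 in Ctrl (adjusted p = 0.0002421). The call in DI was lost with library totals (0.84) and without DI 0 h replicate 1 or DI 6 h replicate 2. The difference between these responses was -0.64 ± 0.53 (adjusted p = 0.7491, 95% interval -1.69 to 0.40), and it ran from -1.31 to -0.18 when 1 library was left out. DI against Ctrl at 6 h was an uncalled -0.78 with all libraries, and without DI replicate 2 of 2, 4 and 6 h it was -1.44 and called (adjusted p = 0.04534). Over the mean of the times Ifngr2 was lower in DI by -0.46 ± 0.17 (adjusted p = 0.0425), a call lost with library totals (-0.39) and kept in 7 of the 20 fits that left out 1 library.

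Ifnar1 and Ifnar2 encode the 2 chains of the type I interferon receptor, IFNAR2 being the one that binds with high affinity. Ifnar1 measured 163 and 236 CPM in DI libraries at 6 h, against 336 and 301 in Ctrl. At 0 h it measured 149 and 143 CPM in DI, against 190 and 168 in Ctrl. Both DI libraries lay above both Ctrl libraries at 1 h and below them at 0, 4 and 6 h, with differences at those 3 times of -0.30 ± 0.26 at 0 h (adjusted p = 0.744), -0.71 ± 0.26 at 4 h (adjusted p = 0.093) and -0.67 ± 0.26 at 6 h (adjusted p = 0.09069), none of them called. With DI replicate 2 of 2, 4 and 6 h left out, the difference at 6 h was -0.96 (adjusted p = 0.03927) and that over the mean -0.38 (adjusted p = 0.02067), against -0.29 ± 0.12 (adjusted p = 0.06387) with all libraries. The DESeq2 Wald test called Ifnar1 lower in DI at 4 h (-0.71, adjusted p = 0.04114) and 6 h (-0.69, adjusted p = 0.03652). It also called the mean over the times (-0.31, adjusted p = 0.02208). Limma-voom (adjusted p = 0.04289) and edgeR on counts divided by estimated reads per molecule (adjusted p = 0.04332) called that mean too. Over time Ifnar1 rose in DI at 2 h by 0.92 ± 0.26 (adjusted p = 0.0233) and in Ctrl at 6 h by 0.83 ± 0.26 (adjusted p = 0.02018). The call in DI was lost with TMM factors of genes of at least 32 CPM (0.76, adjusted p = 0.06225) and without either DI 0 h library or DI 2 h replicate 2, and that in Ctrl when any 1 of its 4 libraries was left out. With library totals DI at 2 h changed by an uncalled 0.46 (adjusted p = 0.2194) and Ctrl by -0.06, -0.05, -0.34 and 0.01 at 1, 2, 4 and 6 h.

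Ifnar2 measured 154 and 173 CPM in DI libraries at 2 h, against 296 and 223 in Ctrl, and 85.0 and 157 in DI at 0 h, against 150 and 111 in Ctrl. The mean was lower in DI at 5 of 5 times, and the libraries were separate at 1 h (198 and 170 CPM in DI, 208 and 212 in Ctrl) and at 2 h. The difference over the mean was -0.31 ± 0.14 (adjusted p = 0.09573) and was not called; with DI replicate 2 of 2, 4 and 6 h left out it was -0.44 (adjusted p = 0.04082). In Ctrl Ifnar2 rose by 0.99 ± 0.31 at 2 h (adjusted p = 0.03878) and 0.86 ± 0.31 at 4 h (adjusted p = 0.04776), calls lost when any 1 of their 4 libraries was left out, and with library totals, which gave 0.41 at 2 h (adjusted p = 0.3193) and -0.015 at 4 h. In DI the changes against 0 h lay between 0.43 and 0.73 and none was called, with values of -0.01 at 2 h and -0.04 at 4 h with library totals.

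**Figure D4:**
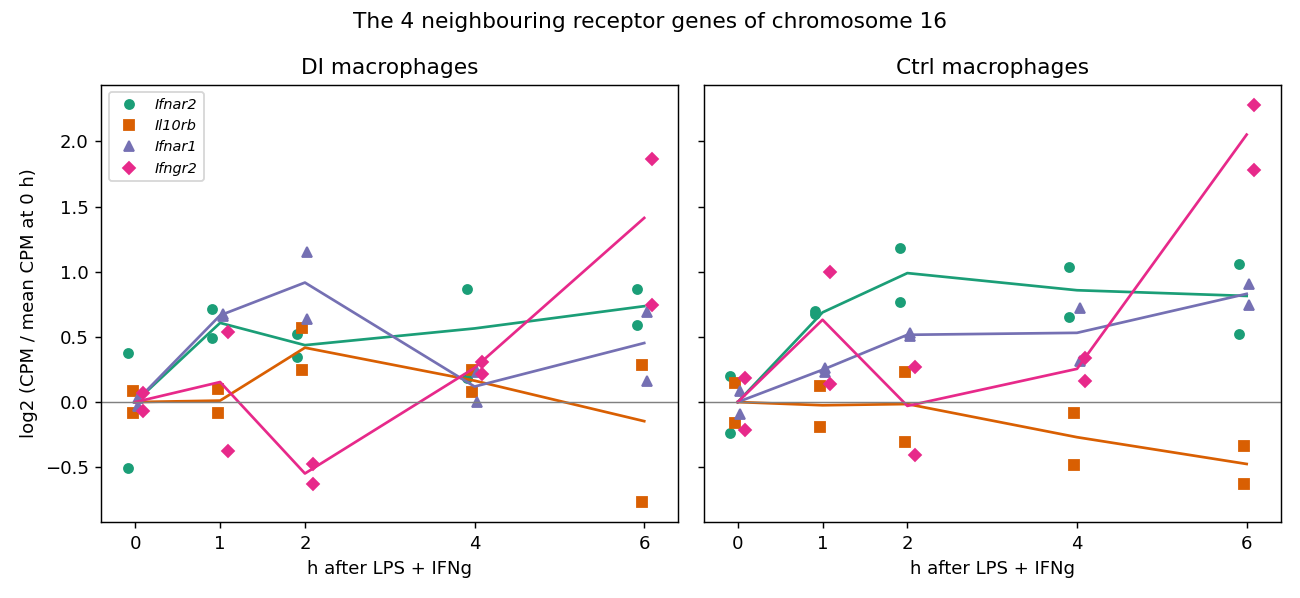
The 4 receptor genes of the chromosome 16 cluster in their genome order, as log2 of each library's CPM over the gene's own mean at 0 h (y axis) against hours of LPS with IFNg (x axis), with DI in the left panel and Ctrl in the right. Ifngr2 stands apart at 6 h in both panels, while Il10rb stays near its 0 h level; these values use TMM factors, and with library totals Ifnar1 and Ifnar2 at 6 h lie between -0.11 and 0.19.

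The 4 neighbours of the cluster did not share 1 time course. Il10rb measured 106 and 51.0 CPM in DI libraries at 6 h, against 129 and 106 in Ctrl, and 91.9 and 81.8 in DI at 0 h, against 146 and 180 in Ctrl. It changed by -0.14 ± 0.31 in DI and -0.48 ± 0.31 in Ctrl at 6 h, neither called, while Ifngr2 rose in both. Over the mean of the times Il10rb was lower in DI by -0.66 ± 0.14 (adjusted p = 0.0007395), a call that held in 10 of 10 other settings and with any 1 of the 20 libraries left out. Across the 10 group means the log2 levels of Ifnar1 and Ifnar2 had r = 0.704 and those of Ifngr1 and Ifngr2 r = -0.316; these points share their libraries and scaling. In the last 500 bases of Ifnar2, Il10rb and Ifngr2 no 50-base word occurs in transcripts of other genes, but 6.43% of those of Ifnar1 do, and the effect on its counts was not tested.

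Il4ra gave the largest single difference between DI and Ctrl among the 10 receptors, and its direction turned over the time course. It encodes the alpha chain that binds IL-4 and, with IL13RA1, IL-13, cytokines that push macrophages toward alternative activation. Il4ra measured 28.5 and 32.4 CPM in DI libraries at 0 h, against 20.6 and 21.5 in Ctrl. At 1 h it measured 130 and 111 CPM in DI, against 57.3 and 68.2 in Ctrl. At 6 h it measured 80.4 and 85.2 CPM in DI, against 241 and 264 in Ctrl. Libraries did not overlap at any of the 5 times: DI was above Ctrl at 0, 1, 2 and 4 h and below at 6 h.

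DI cells had more Il4ra message at 1 h by 0.94 ± 0.26 (adjusted p = 0.0314), a call lost when any 1 of the 4 libraries compared was left out (0.82 to 1.07). In edgeR this call was also lost without a filter (adjusted p = 0.09347) and with only the compared groups (adjusted p = 0.1307). Differences at 0 h (0.53 ± 0.26, adjusted p = 0.3657), 2 h (0.75 ± 0.26, adjusted p = 0.08028) and 4 h (0.28 ± 0.26, adjusted p = 0.5648) were not called. At 6 h Il4ra was lower in DI by -1.61 ± 0.26 (adjusted p = 0.0001022), and this call was kept in every fit that left out 1 library. The means show when the courses part: 120 ± 13.7, 144 ± 3.59, 121 ± 5.12 and 82.8 ± 3.45 CPM at 1, 2, 4 and 6 h in DI, against 62.7 ± 7.72, 85.3 ± 4.36, 99.6 ± 15.5 and 252 ± 15.9 in Ctrl (SD, n = 2 each). In DI the highest mean was at 2 h, and in Ctrl at 6 h. Against 0 h, Il4ra rose by 1.44 ± 0.26 at 6 h in DI (adjusted p = 0.0002443) and by 3.58 ± 0.28 in Ctrl (adjusted p = 4.321e-10). The response of DI cells at 6 h was smaller than that of Ctrl cells by -2.14 ± 0.37 (adjusted p = 0.002114, 95% interval -2.86 to -1.42).

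The partner chains of IL4RA took other courses. Il2rg, the common gamma chain, measured 168 and 120 CPM in DI libraries at 6 h, against 543 and 380 in Ctrl, and was lower in DI by -1.68 ± 0.31 (adjusted p = 0.0004557). Over the mean of the times it was lower by -1.21 ± 0.14 (adjusted p = 1.852e-07), and its response difference at 6 h was -0.996 ± 0.43 (adjusted p = 0.35). Il13ra1, named after its values were seen, measured 11.3 and 12.2 CPM in DI at 6 h, against 19.3 and 22.4 in Ctrl, and rose against 0 h by 3.38 ± 0.78 in DI and 2.73 ± 0.69 in Ctrl. At 0 h it measured only 2.47 and 0 CPM in DI, against 3.999 and 2.22 in Ctrl, and over the other settings and left-out libraries the DI rise ran from 2.23 to 9.06.

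Il10ra was lower in DI cells over the mean of the times, with differences of -0.88 to -0.64 after the stimulus. It encodes the chain that binds IL-10, the cytokine that restrains activated macrophages through STAT3. Il10ra measured 52.8 and 69.9 CPM in DI libraries at 1 h, against 105 and 120 in Ctrl. At 2 h it measured 117 and 180 CPM in DI, against 208 and 255 in Ctrl, and at 6 h 73.2 and 69.4 in DI, against 135 and 123 in Ctrl. All DI libraries from 1 h on lay below both Ctrl libraries of their time, and at 0 h the groups overlapped (22.4 and 14.8 CPM in DI, 22.5 and 22.4 in Ctrl).

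The DI differences for Il10ra were -0.28, -0.88, -0.64, -0.76 and -0.85 at 0, 1, 2, 4 and 6 h, of which that at 6 h was called (SE 0.28, adjusted p = 0.04592). That call was lost when any 1 of its 4 libraries was left out, with library totals (-0.65) and with counts divided by estimated reads per molecule (adjusted p = 0.06404). It was also lost with TMM factors of genes of at least 32 CPM (-0.72), without a filter, with only the compared groups and with the replicate block. Without DI replicate 2 of 2, 4 and 6 h the difference was -0.81. The mean over the times was -0.68 ± 0.13 (adjusted p = 0.0001771) and held with any 1 of the 20 libraries left out. Both conditions had their highest level at 2 h, 149 ± 44.7 CPM in DI and 232 ± 33.6 in Ctrl, with rises of 3.003 ± 0.31 in DI (adjusted p = 6.457e-08) and 3.37 ± 0.31 in Ctrl (adjusted p = 7.928e-09). At 6 h the rise was 1.94 ± 0.30 in DI and 2.52 ± 0.30 in Ctrl. Response differences lay between -0.60 and -0.36 and none was called.

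With TMM factors Il6ra was the one gene of the 10 called lower at 4 and 6 h than at 0 h in both conditions, and its level was higher in DI than in Ctrl at both times. It encodes the chain that binds IL-6 before gp130 joins, and the receptor can be shed from the surface. Il6ra measured 112 and 124 CPM in DI libraries at 0 h, against 172 and 182 in Ctrl. At 4 h it measured 57.8 and 40.8 CPM in DI, against 20.3 and 24.0 in Ctrl. At 6 h it measured 41.3 and 74.5 CPM in DI, against 32.6 and 25.1 in Ctrl. DI libraries lay below Ctrl at 0, 1 and 2 h and above at 4 and 6 h, with no overlap at any of the 5 times.

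Against 0 h, Il6ra fell by 1.26 ± 0.30 at 4 h in DI (adjusted p = 0.004111) and by 2.996 ± 0.32 in Ctrl (adjusted p = 1.006e-07). The DI call at 4 h was lost without DI 4 h replicate 2 (adjusted p = 0.07519), and that at 6 h (-1.03) without DI 0 h replicate 2 or DI 6 h replicate 1, with a range of -1.51 to -0.66. DI was above Ctrl by 1.15 ± 0.31 at 4 h (adjusted p = 0.0198) and 1.00 ± 0.31 at 6 h (adjusted p = 0.03179). The 4 h call was lost without either Ctrl library or DI replicate 1 (range 0.88 to 1.38), and the 6 h call without either Ctrl library or DI replicate 2, where it was 0.52. With counts divided by estimated reads per molecule both calls were lost, at 1.11 (adjusted p = 0.05108) and 0.91 (adjusted p = 0.09757). Both were also lost with only the compared groups (edgeR adjusted p = 0.05259 at 4 h and 0.1076 at 6 h). Limma-voom lost the 6 h call (0.94, adjusted p = 0.0837). The response difference was 1.74 ± 0.43 at 4 h (adjusted p = 0.05663) and 1.59 ± 0.43 at 6 h (adjusted p = 0.06327). Both were called with library totals (1.99 and 1.85) and with TMM factors of genes of at least 32 CPM (1.855 and 1.71). They were also called without a filter (1.75 and 1.61) and with the DESeq2 Wald test (1.74 and 1.58). Of 8 fits that left out 1 library, 0 called it at 4 h and 1 at 6 h.

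Il6st, which encodes the signaling chain gp130 and was named after its values were seen, was also higher in DI at 2 and 6 h. It measured 185 and 305 CPM in DI libraries at 2 h, against 77.8 and 71.8 in Ctrl, and 116 and 84.4 in DI at 6 h, against 40.4 and 47.5 in Ctrl. The differences were 1.71 ± 0.35 at 2 h (adjusted p = 0.003191), 1.19 ± 0.36 at 6 h (adjusted p = 0.02589) and 0.73 ± 0.16 over the mean of the times (adjusted p = 0.0007241). The 2 h call was lost without Ctrl replicate 2 or DI replicate 2, and the 6 h call without either Ctrl library or DI replicate 1. At 6 h Il6st had changed by -0.35 in DI, not called, and by -2.04 ± 0.36 in Ctrl (adjusted p = 0.0001117). The response difference was called at 2 h, at 2.22 ± 0.49 (adjusted p = 0.0409), a call kept in 1 of 8 fits that left out a library.

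Of the TNF receptors, Tnfrsf1b differed with DI before the stimulus and Tnfrsf1a did not differ detectably at any time. Tnfrsf1b encodes TNFR2, the inducible receptor without a death domain. It measured 346 and 288 CPM in DI libraries at 0 h, against 115 and 119 in Ctrl. At 1 h it measured 274 and 359 CPM in DI, against 151 and 149 in Ctrl. At 6 h it measured 1860 and 1432 CPM in DI, against 1211 and 1121 in Ctrl. The DI libraries were above both Ctrl libraries at 0, 1 and 6 h, and the groups overlapped at 2 h (425 and 510 CPM in DI, 313 and 548 in Ctrl) and at 4 h (1299 and 866 in DI, 897 and 1308 in Ctrl).

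Tnfrsf1b was higher in DI by 1.44 ± 0.29 at 0 h (adjusted p = 0.003851) and 1.08 ± 0.29 at 1 h (adjusted p = 0.02987). The 0 h call was lost without either Ctrl library and the 1 h call without either Ctrl library or DI replicate 2, with values of 1.30 to 1.56 at 0 h. Both calls were also lost with only the compared groups (edgeR adjusted p = 0.06469 at 0 h and 0.07418 at 1 h). Over the mean of the times the difference was 0.62 ± 0.13 (adjusted p = 0.0006071) and held with any 1 of the 20 libraries left out. The stimulus raised Tnfrsf1b at 6 h by 2.38 ± 0.30 in DI (adjusted p = 1.922e-06) and 3.32 ± 0.31 in Ctrl (adjusted p = 1.1e-08). At 2 h the change was 0.56 ± 0.29 in DI (adjusted p = 0.2469) and 1.88 ± 0.30 in Ctrl (adjusted p = 4.642e-05). The response differences of -1.32 ± 0.41 at 2 h (adjusted p = 0.239), -1.46 ± 0.41 at 4 h (adjusted p = 0.1114) and -0.94 ± 0.41 at 6 h (adjusted p = 0.3581) were not called. That at 4 h was called by edgeR without a filter (-1.45, adjusted p = 0.04953) and by the DESeq2 Wald test (-1.46, adjusted p = 0.02103).

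Tnfrsf1a encodes TNFR1, the broadly expressed receptor with a death domain. It measured 46.1 and 34.7 CPM in DI libraries at 0 h, against 43.0 and 37.6 in Ctrl, and 111 and 67.1 in DI at 6 h, against 74.1 and 133 in Ctrl. The groups overlapped at 0, 1 and 6 h. Differences between DI and Ctrl lay between -0.42 and 0.33, and over the mean the difference was -0.12 ± 0.15 (adjusted p = 0.5958, 95% interval -0.42 to 0.18). The stimulus raised Tnfrsf1a at 6 h by 1.14 ± 0.35 in DI (adjusted p = 0.01996) and 1.37 ± 0.35 in Ctrl (adjusted p = 0.00411). With library totals both calls were lost, at 0.59 in DI and 0.56 in Ctrl. The DI call was also lost without DI 0 h replicate 2 or DI 6 h replicate 1, and the Ctrl call without Ctrl 0 h replicate 2 or Ctrl 6 h replicate 2.

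Csf2rb rose early in both conditions and stayed high. No difference between DI and Ctrl was called at any time in the main edgeR fit, though other settings called that at 4 h. Its product is the beta chain shared by the GM-CSF, IL-3 and IL-5 receptors. Csf2rb measured 76.3 and 74.4 CPM in DI libraries at 0 h, against 96.1 and 99.3 in Ctrl. At 1 h it measured 372 and 330 CPM in DI, against 376 and 366 in Ctrl. At 4 h it measured 486 and 544 CPM in DI, against 276 and 357 in Ctrl. Both DI libraries were below Ctrl at 0 h and above it at 2 and 4 h, and the groups overlapped at 1 and 6 h.

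Csf2rb rose at 1 h by 2.22 ± 0.26 in DI (adjusted p = 1.333e-06) and 1.93 ± 0.25 in Ctrl (adjusted p = 6.754e-06), and at 4 h by 2.77 ± 0.26 in DI (adjusted p = 1.36e-08) and 1.70 ± 0.25 in Ctrl (adjusted p = 1.188e-05). The difference at 4 h was 0.70 ± 0.25 (adjusted p = 0.07303). It was called at 0.90 with library totals and at 0.82 with TMM factors of genes of at least 32 CPM. The DESeq2 Wald test called this difference at 0.70 (adjusted p = 0.01783). Over the mean of the times it was 0.07 ± 0.11 (adjusted p = 0.6933, 95% interval -0.15 to 0.28). The response difference at 4 h was 1.08 ± 0.35 (adjusted p = 0.1988), which the DESeq2 Wald test called at 1.08 (adjusted p = 0.02916). Csf2rb has a near copy, Csf2rb2, which in mice encodes a beta chain for IL-3 and lies 20030 bp away. Of the 50-base words of the Csf2rb transcript 18.4% are shared with it, but none of those in the last 500 bases, where 3' counting reads. Csf2rb2 measured 142 and 126 CPM in DI libraries at 6 h, against 113 and 139 in Ctrl, and rose by 2.56 ± 0.34 in DI and 1.77 ± 0.33 in Ctrl. The alpha chain Csf2ra, named after its values were seen, rose in DI at 6 h by 1.11 ± 0.37 (adjusted p = 0.03383), against an uncalled 0.50 ± 0.36 in Ctrl. The call was lost with TMM factors of genes of at least 32 CPM, with library totals and with only the compared groups (0.54 to 1.57 over all settings and left-out libraries), and it was kept in 1 of 4 fits that left out a library. That these responses differ was not shown, as their difference was 0.61 ± 0.51 (adjusted p = 0.7577).

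Set side by side, the direct test of the response differences called few genes. In the edgeR test it called 0 of 10 receptors at 1 h (0.253% of all genes), 0 at 2 h (0.356%), 0 at 4 h (0.76%) and 1, Il4ra, at 6 h (1.55%). At an unadjusted p under 0.05 there were 0 at 1 h, 1 at 2 h (Tnfrsf1b), 3 at 4 h (Il6ra, Tnfrsf1b and Csf2rb) and 3 at 6 h. Limma-voom called 0, 0, 0 and 1, and the DESeq2 Wald test 0, 0, 3 and 2. Of all genes, the DESeq2 Wald test called 217 of 6942 at 4 h and 335 of 7975 at 6 h. The edgeR test called 81 and 165 of 10663 at these times. No share of all genes is given here for limma-voom or for the unadjusted p. A joint test of the 4 response differences, which asks whether the course differs at any stimulated time, called 2 of 10 beside 2.1% of all genes: Il4ra (adjusted p = 0.0007009) and Il6ra (adjusted p = 0.01722). Tnfrsf1b followed with an adjusted p of 0.1413, and the other 7 had adjusted p of 0.3732 to 0.9155.

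The receptors also differed in how far their levels ranged and how well the groups could be ordered. Between the highest and lowest group means the ratio was 14.1 for Tnfrsf1b (1646 CPM in DI at 6 h, 117 in Ctrl at 0 h), 12.5 for Il10ra and 12.0 for Il4ra. It was 8.98 for Il6ra, 6.83 for Csf2rb and 6.66 for Ifngr2, and between 2.15 and 3.13 for Ifnar1, Ifnar2, Ifngr1 and Tnfrsf1a. When the 10 groups were ordered by their means, 2 of 9 neighbour pairs had overlapping libraries for Il4ra and 9 of 9 for Tnfrsf1a. The order of Tnfrsf1a, Ifnar2 (8 of 9), Ifnar1, Ifngr1 and Ifngr2 (7 of 9 each) is thus mostly within the spread of neighbouring groups.

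Other genes of the same pathways were described by lists. Of 24 partner and other JAK-coupled chains 20 were tested, and over the mean of the times 1 was higher and 10 were lower in DI, beside 12% of all genes higher and 17.7% lower, with a median of -0.67 beside -0.06 for all genes. The lower ones include Csf3r, the G-CSF receptor and also one of the neutrophil markers above, at -0.89 ± 0.16 (adjusted p = 8.43e-05). At 6 h against 0 h, 10 were higher and 0 lower in DI, beside 11.2% and 8.91% of all genes, and 9 were higher and 3 lower in Ctrl, beside 15.2% and 11.3%. Of 12 other TNF receptor family members tested, 3 were higher and 5 lower in DI over the mean, beside the same 12% and 17.7%, with a median of -0.21. Cd40, a costimulatory receptor, averaged 492 ± 86.5 CPM in DI at 6 h and 1647 ± 309 in Ctrl and was lower over the mean by -2.08 ± 0.17 (adjusted p = 5.249e-10). Both tested chains of the IL-1 and IL-18 receptors, of 8 listed, were lower in DI over the mean.

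The proximal transducers were lower in DI in 8 of 16 cases and higher in 0 over the mean, beside 17.7% and 12% of all genes, with a median of -0.60 beside -0.06 for all genes. Stat5a, which acts below CSF2RB, averaged 21.4 ± 9.85 CPM in DI at 6 h and 195 ± 5.95 in Ctrl, and its response difference was -3.43 ± 0.49 (adjusted p = 0.0002859). Stat3, used by the IL-10 and IL-6 receptors, averaged 535 ± 30.1 CPM in DI at 6 h and 2328 ± 64.2 in Ctrl, with a response difference of -1.73 ± 0.35 (adjusted p = 0.009396). Of 13 feedback and shedding genes, 1 was higher (Ptpn1) and 6 were lower in DI over the mean, beside 12% and 17.7% of all genes, among them Socs3, which blocks gp130 signaling (-0.76 ± 0.18, adjusted p = 0.002391), and Usp18, which blocks IFNAR2 (-1.34 ± 0.13, adjusted p = 1.41e-08). Of the ligands, 4 of 8 were tested, and 3 were lower and 0 higher in DI over the mean, beside 17.7% and 12%. Tnf averaged 187 ± 4.14 CPM in DI at 1 h and 730 ± 123 in Ctrl, lower in DI by -1.963 ± 0.27 (adjusted p = 2.647e-05) at a time when Tnfrsf1b was called higher. Tnf averaged 790 ± 103 CPM in DI at 6 h and 307 ± 53.4 in Ctrl, so at 6 h the means of ligand and TNFR2 message were both above Ctrl, by a called 1.36 ± 0.26 for Tnf (adjusted p = 0.0007717) and an uncalled 0.50 ± 0.29 for Tnfrsf1b.

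Genes with the most similar course were found by Pearson's r of the 10 group means of log2 CPM among 4962 genes, as a description over groups that share libraries and scaling. For Il10ra these were Cish, a STAT5 target and feedback inhibitor (r = 0.981), and Sdc4 (0.976). For Csf2rb they were the interferon-response transcription factors Irf1 (0.979) and Batf2 (0.977), and for Ifngr1 Dnttip2 (0.966) and Top1 (0.951). For Il6ra they were Nfic and Stard9 (0.961 each), for Tnfrsf1b Lpar1 and Polr2g (0.973 each), and for Tnfrsf1a Cers6 and Arf4 (0.982 each). For Ifnar2 they were Pi4k2a (0.949) and Furin (0.948), for Il4ra Mrpl22 (0.94) and Slc11a2 (0.936), for Ifnar1 Fbxw17 (0.929) and Atp2c1 (0.902), and for Ifngr2 Tmem127 (0.894) and Prex1 (0.89). Among the receptors themselves the strongest relations were between Il6ra and Tnfrsf1b (r = -0.894), Ifnar2 and Il10ra (0.88) and Il10ra and Csf2rb (0.878).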

How the data were processed

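The authors deposited a table of whole-number, unnormalized counts for Ensembl genes; all 20 library columns were used and 0 were left out. Per the submitters' processing notes, the tools were STAR, HTSeq and DESeq2 with the mm10 build, with no versions or options given. Per the labels' protocols, barcoded oligo-dT primers were used, libraries were pooled by Actb qPCR and 12 cycles of PCR followed, so reads lie near 3' ends and are not independent molecules.

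From these counts, genes were filtered with filterByExpr by group and scaled with TMM factors in edgeR 4.0.16 (R 4.3.3). Quasi-likelihood fitting used the 20 libraries together, each of the 10 groups having its own coefficient, so groups share their estimate of spread. The 2 libraries of a group correlated less in DI (r of log2 CPM 0.9103 to 0.9256) than in Ctrl (0.9665 to 0.9806). A shared estimate does not carry this difference, so SE may be too small for genes that vary more in DI. DI was compared with Ctrl by time and over the mean of the 5 times. Further contrasts were each stimulated time against 0 h within a condition, the DI response minus the Ctrl response, and the 4 of these jointly. P-values were adjusted by the Benjamini-Hochberg method over all tested genes within a contrast. SE come from the F statistic. The edgeR fit was tried on simulated counts with known changes, for the contrast of DI against Ctrl at 6 h.

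Alternatives were DESeq2 1.42.0 size factors and Wald test, limma-voom (limma 3.58.1), TMM factors from genes of at least 32 CPM, no filter, a minimum of 5 CPM in 2 libraries, the compared groups alone, a replicate block, counts divided by estimated reads per molecule, and each library left out. Library totals without TMM factors, and DI at 2, 4 and 6 h each without replicate 2, were added after the data were seen. Reads per molecule were estimated from the share at 0 among genes with 4 to 12 expected reads, the expectation coming from the other libraries of the same treatment, so changes over time enter it.

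The receptors, the pathway lists and the contrasts were chosen with earlier results of these data known. All 10 receptors are named. From each list, the 3 genes with the smallest p for DI against Ctrl over the mean and the 3 for Ctrl at 6 h may be named, with Csf2rb2 and Il10rb as fixed additions; Il6st, Il13ra1 and Csf2ra were chosen after their values were seen. The 2 genes most like each receptor were named by Pearson's r among genes of at least 20 CPM. Intervals cover the spread between libraries. Trac was not analysed here.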

Additional observations from a re-analysis of the deposited data

Results flagged for a closer look

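The response of Il4ra at 6 h differed between conditions by a direct test of that difference. DI cells rose less than Ctrl cells by -2.14 ± 0.37 on the log2 scale (edgeR quasi-likelihood test, adjusted p = 0.002114), with levels of 80.4 and 85.2 CPM in DI libraries and 241 and 264 CPM in Ctrl libraries at 6 h. The call was kept in every fit that left out 1 library. Groups of 2 libraries allow no check for a library that stands apart.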

How the results depend on the processing

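Alternatives were run for 180 values (each receptor in each contrast), of which 57 were called. DESeq2 size factors and a filter of 5 CPM kept 57 calls, limma-voom 56, no filter 55, counts divided by reads per molecule 54, high-CPM TMM factors 48 and library totals 45. The DESeq2 Wald test kept 57 and added 13. With only the compared groups, 41 of 53 calls were kept, and with DI at 2, 4 and 6 h as 1 library each 22 of 28, the lone library being assumed to vary like the other groups. Few libraries per group and many reads per molecule in DI limit the precision.

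Same-numbered deviations had correlations of -0.143 to 0.113 between groups, so replicate numbers showed no shared shift of expression across groups. They did go with reads per molecule in DI. There replicate 2 had more than replicate 1 at all 5 times, with 5.65 to 10.2 against 3.58 to 6.51. The fit with the replicate block kept 54 calls and lost Ifnar2 in Ctrl at 4 h (adjusted p = 0.05653), Ifngr2 over the mean (0.05014) and Il10ra at 6 h (0.05028).

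For the counts of receptors called, with all genes called in brackets, DI against Ctrl at 1 h gave 1 without a filter (673 of 14883). At 2 h it gave 2 with the DESeq2 Wald test (1063 of 10456). At 4 h it gave 2 with high-CPM TMM factors (998 of 10663) and 2 with library totals (1002). With the DESeq2 Wald test it gave 4 at 4 h (1405). Per molecule it gave 0 at 4 h (897) and 1 at 6 h (1340). With only the compared groups it gave 0, 0, 0, 0 and 1 at 0, 1, 2, 4 and 6 h. Of all 10663 genes, 97, 349, 328, 841 and 1220 were called there. With 1 DI library it gave 0 at 2 h. DI at 2 h against 0 h gave 3 with high-CPM TMM factors (1197 of 10663) and 3 with only the compared groups (599). The response difference at 4 h gave 1 with high-CPM TMM factors (78 of 10663) and 1 with library totals (78). It gave 2 without a filter (183 of 14883) and 3 with the DESeq2 Wald test (217 of 6942). At 6 h each of these settings gave 2. In the same order, all genes called at 6 h were 173 and 178 of 10663, 273 of 14883 and 335 of 7975. The cause of these shifts was not tested. No share of all genes is given for the fit with 1 DI library, or for the fits below that left out 1 library. Receptor counts from these fits therefore have no background beside them.

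Leaving out 1 library gave, for DI against Ctrl, 0 to 1 receptors called at 0, 1, 2 and 4 h, 1 to 2 at 6 h and 3 to 5 over the mean. At 1, 2, 4 and 6 h against 0 h it gave 3 to 4, 3 to 5, 5 to 5 and 5 to 6 in DI and 3 to 3, 4 to 4, 6 to 6 and 6 to 7 in Ctrl. For the response difference it gave 0 to 0 at 1, 2 and 4 h and 1 to 2 at 6 h.

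Directions are given as turned where the sign changed and the value was called or moved by more than its SE; smaller sign changes of uncalled values are left out. Of the values that turned, Ifnar2 in Ctrl at 4 h was the one called with all libraries and TMM factors. With library totals Ifnar1 was -0.50 and -0.11 in DI at 4 and 6 h, and -0.058, -0.055 and -0.34 in Ctrl at 1, 2 and 4 h. Ifnar2 was -0.0088 and -0.041 in DI at 2 and 4 h and -0.015 and -0.015 in Ctrl at 4 and 6 h. Ifngr2 was -0.35 in DI and -0.61 in Ctrl at 4 h, and Il6ra -0.14 in Ctrl at 1 h. With 1 DI library, Ifnar1 was -0.17 for DI against Ctrl at 2 h. Leaving out 1 library turned DI against Ctrl for Tnfrsf1b at 2 h (-0.23 to 0.58) and 4 h (-0.35 to 0.27), Ifngr1 at 1 h (-0.61 to 0.25) and 6 h (-0.57 to 0.17), Tnfrsf1a at 6 h (-0.63 to 0.27), Ifnar2 at 0 h (-0.62 to 0.26) and Ifnar1 at 2 h (-0.17 to 0.35). It also turned DI against 0 h at 1 h for Ifngr2 (-0.38 to 0.54) and Tnfrsf1a (-0.16 to 0.56), and Ctrl against 0 h at 4 h for Ifngr1 (-0.46 to 0.13). Response differences turned for Ifnar2 at 1 h (-0.46 to 0.43), 4 h (-0.68 to 0.21) and 6 h (-0.45 to 0.43), Ifngr1 at 1 h (-0.03 to 0.83) and Tnfrsf1a at 6 h (-0.63 to 0.27).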
